A study of Danio rerio with 5 samples.

Results

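The proteasome subunits of adult zebrafish were compared between the upper digestive tract of zCdx1b transgenic fish and that of wild-type fish. Members were all probe sets whose single gene symbol in the platform annotation begins with psma, psmb, psmc, psmd, psme, psmf or psmg followed by a digit. This gave 61 probe sets for 50 genes, out of 15502 probe sets on the array besides controls. The rule itself used names only and no measured value, but the members were chosen with earlier results of these data known. All 61 were mapped to a current gene entry through Entrez identifiers. Paralogous genes of the family are alike in sequence, so some probe sets may read a close copy as well as the gene they are named for.

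RNA of zCdx1b transgenic fish came as 3 pools and that of wild-type fish as 2, with 1 array for each pool. Every pool combined tissue of 3 fish that were 3 months old, and both groups had the AB background. The transgenic fish came from one-cell eggs of the AB* line injected with the plasmid pmini Tol2-zK5p-zCdx1b-EGFP and Tol2 transposase RNA, so the coding sequence of Cdx1b, a caudal-family homeobox factor, stood with EGFP behind the element written zK5p. Neither the number of founders nor the sex of the fish is given in the sources used here, and the pooling hides differences between single fish. Because the tissue is a mixture, a change in the number of cells of one type and a change in RNA per cell cannot be told apart.

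The proteasome is the protease that removes ubiquitin-tagged proteins from cytosol and nucleus. Its core is a stack of rings of alpha subunits, which form the gate, and beta subunits, some of which carry the proteolytic sites. A regulatory particle with a ring of ATPases and a set of non-ATPase subunits binds, unfolds and feeds the substrate into the core. In cells exposed to interferon and in many leukocytes, inducible beta subunits take the place of the constitutive catalytic ones and alter which peptides are cut, which serves antigen presentation. Other proteins of the family activate the core, inhibit it or help to assemble it. Subunits of the core and regulatory particle are needed in every cell type, whereas the inducible subunits differ widely between tissues.

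The members comprised 8 alpha ring genes, 7 constitutive beta ring genes, 5 inducible or related beta genes, 7 ATPase genes, 11 non-ATPase genes of the regulatory particle, 3 activator genes, 1 inhibitor gene and 6 assembly chaperone genes. The remaining 2 genes, psmc3ip and psme3ip1, encode proteins named for binding a subunit and are not subunits themselves. After a filter on low values, 55 probe sets of 49 genes were tested. The 6 that failed the filter were both probe sets of psmc3ip, a pair of the psme3ip1 probe sets, 1 of 2 for psmd9 and 1 of 3 for psmc1b. Values are log2 expression values as deposited, and a change is the mean of the transgenic pools minus the mean of the wild-type pools on that scale.

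Transcripts of tissue markers differed greatly between the groups. Of 34 exocrine pancreas, 34 intestinal absorptive and 33 hepatocyte markers listed, 18, 24 and 23 passed the filter on low values. All 18 exocrine pancreas, 23 of 24 intestinal absorptive and 20 of 23 hepatocyte markers rose in transgenic pools. Of 34 squamous epithelium and 37 striated muscle markers listed, 27 and 26 passed the filter, and 24 and 8 of these fell. Among 6479 genes tested with limma, 11.2% rose and 11.3% fell. A marker low in wild-type pools could pass the filter through the transgenic pools alone, and the reverse. The shares of measured markers therefore follow in part from the filter. With wild-type pool 1 or 2 left out, 11 and 13 squamous markers and 0 and 0 striated muscle markers fell. The log2 of the summed exocrine pancreas level ran from 16.06 to 16.28 in transgenic pools and from 8.06 to 8.37 in wild-type pools, and that of the intestinal absorptive markers from 15.83 to 16.08 and from 9.15 to 9.33 in the same order. The log2 of the summed hepatocyte level was 15.33, 15.18 and 14.98 in transgenic pools and 11.01 and 11.22 in wild-type pools. The 3 hepatocyte markers not called had negative changes, at -1.08 for vtg2, -0.87 for vtg4 and -0.10 for rbp4. That of the squamous markers was 13.05, 13.73 and 13.90 in transgenic pools and 15.39 and 15.38 in wild-type pools, and that of the striated muscle markers 11.23, 13.47 and 14.33 in transgenic pools and 15.38 and 15.42 in wild-type pools. The label upper digestive tract thus covered tissue with absorptive, pancreatic and hepatocyte transcripts in the transgenic pools and with little of them in the wild-type pools, where prss1 was at or below the level of the negative control probe sets. Wild-type pool 2 had the narrowest distribution of values, with an SD of 1.56 over all probe sets against 1.69 to 1.78 on the other 4 arrays.

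Against this background no proteasome probe set passed limma's test. Of the 55 tested, 0 were higher and 0 were lower at a Benjamini-Hochberg adjusted p under 0.05, while 21.8% of all 10335 probe sets tested passed (10.1% higher and 11.7% lower). At an unadjusted p under 0.05 there were 2 members, 1 probe set each of psmf1 and psmd12, or 3.64% against 35.2% of all probe sets. The median change of the members was -0.06, beside -0.10 over all probe sets tested. No member changed by 1 or more on the log2 scale, whereas 21.1% of all probe sets did, and the members' changes ran from -0.83 for psmb7 to 0.82 for psmb13a. The transgenic and wild-type values did not overlap for 10 of the 55 members, or 18.2%, compared with 50.9% of all probe sets.

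**Figure D1:**
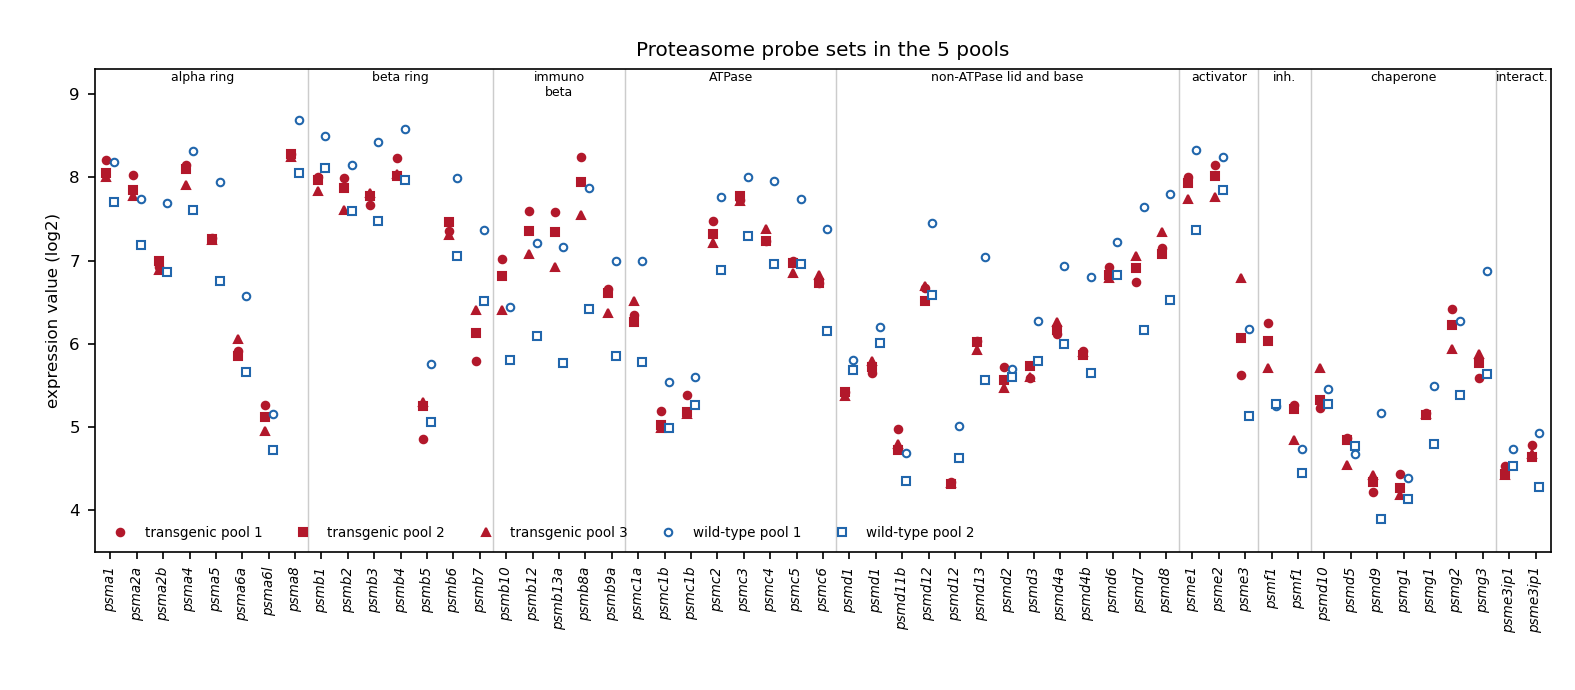
Log2 expression value of each of the 55 tested proteasome probe sets (x axis, by class, a symbol repeated where a gene has several probe sets) in the 3 transgenic pools (filled red) and the 2 wild-type pools (open blue). For most members the 3 transgenic points lie close together and the 2 wild-type points lie apart, with wild-type pool 1 above wild-type pool 2.

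A missed threshold does not show equal expression, so the 95% intervals of the changes bear on what was measured. The interval lay wholly within a 2-fold change in either direction for 31 of the 55 members, or 56.4%, beside 44.8% of all probe sets tested. The median standard error was 0.29 for the members and 0.26 for all probe sets. For the other 24 members, among them all 5 inducible or related beta subunits, a 2-fold change in at least one direction was within the interval.

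**Figure D2:**
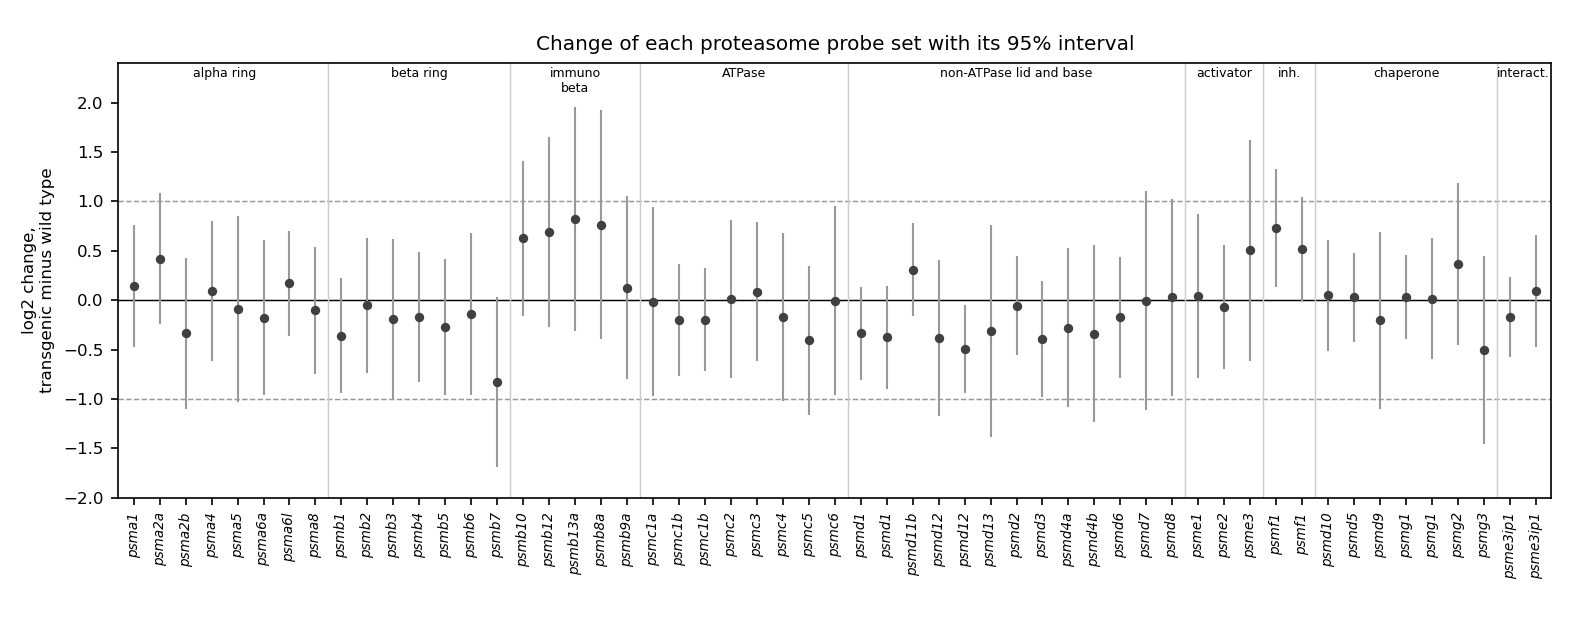
Log2 change, transgenic minus wild type, of each tested proteasome probe set with its 95% interval from limma (3 transgenic and 2 wild-type pools). Dashed lines mark a 2-fold change. All points lie between -0.83 and 0.82, and the interval clears 0 only for 1 probe set each of psmf1 and psmd12.

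The members varied more between the wild-type pools than between the transgenic pools. The value in wild-type pool 1 exceeded that in wild-type pool 2 for 53 of 55 members, or 96.4%, and for 63.8% of all probe sets tested. The median gap, pool 1 minus pool 2, was 0.71 for members and 0.21 for all probe sets. In contrast, the 3 transgenic pools spanned a median of 0.24 for members and 0.34 for all probe sets. The gap between the wild-type pools was wider than the span of the transgenic pools for 48 members (87.3%, against 59.3% of all probe sets). For 24 members, or 43.6%, all 3 transgenic values lay between the wild-type pair, which held for 17.0% of all probe sets. After quantile normalization, which gives all arrays one distribution of values, the gap was positive for 49 of 55 members (89.1%, against 53.1% of all probe sets), with a median of 0.42, beside 0.04 over all probe sets.

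**Figure D3:**
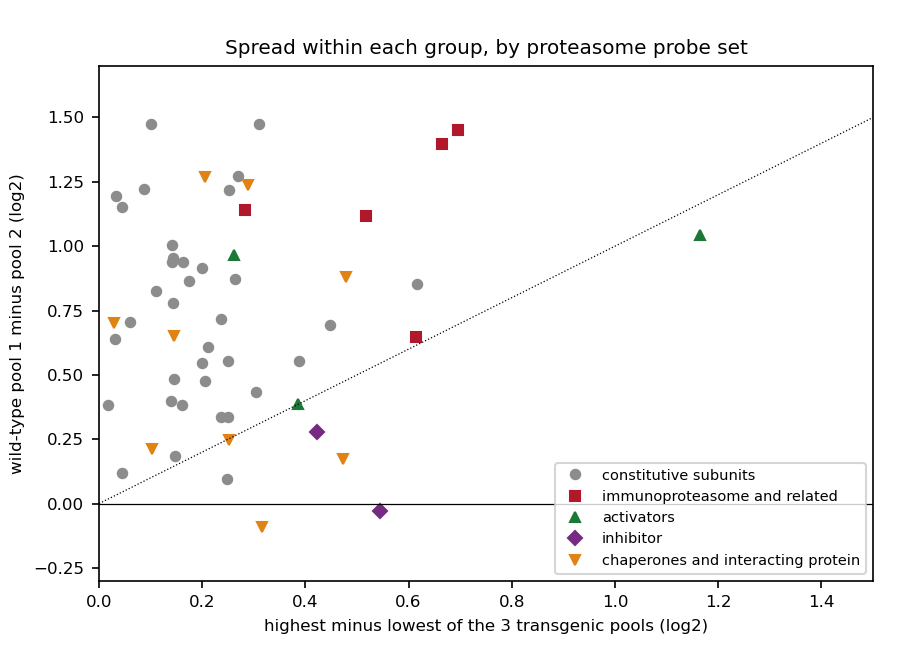
Gap between the wild-type pools (y axis, pool 1 minus pool 2, log2) against the span of the 3 transgenic pools (x axis, highest minus lowest, log2) for the 55 tested proteasome probe sets, by class. The dotted line marks equality, and 48 members have a wild-type gap larger than their transgenic span.

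Because of this gap the sign of the list depended on which wild-type pool was used. Without wild-type pool 1 the median change of the members was 0.33, and without wild-type pool 2 it was -0.43. No member passed limma's test in the first case, where 11.8% of all probe sets were called higher and 6.01% lower (17.8% in all), and the smallest adjusted p of a member was 0.0507. In the second, 0 were higher and 7 probe sets of 6 genes were lower (psmg3, psmd9, psmd4b, psmd13, psmc5 and both probe sets of psmd12), where 9.24% of all probe sets were called higher and 14.9% lower (24.2% in all). With 1 wild-type pool left, its spread is assumed by limma to match that of the transgenic pools.

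The alpha ring closes the core and, when a regulator docks, opens the gate to the proteolytic chamber. Its 8 probe sets had changes from -0.34 to 0.42 with a median of 0.00, of which 4 were positive and 4 negative, and the intervals of 5 lay within 2-fold. The class median was 0.38 when wild-type pool 1 was left out and -0.34 when wild-type pool 2 was. The highest change was that of psma2a, at 8.03, 7.85 and 7.78 in transgenic pools 1, 2 and 3 and at 7.74 and 7.19 in wild-type pools 1 and 2. The lowest transgenic value of psma2a was just above the highest wild-type value, and the change of 0.42 (SE 0.27) had a limma adjusted p of 0.342. It was 0.70 with wild-type pool 1 left out and 0.14 with wild-type pool 2 left out. The paralogue psma2b, which encodes the same position in the ring, read 6.92, 7.0 and 6.89 in transgenic pools and 7.69 and 6.86 in wild-type pools. Its change was -0.34 (SE 0.32, limma adjusted p = 0.520), and all its transgenic values lay between the wild-type pair.

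The span of the 3 transgenic pools ran from 0.03 to 0.30 over the alpha probe sets. It was 0.03 for psma5 and 0.03 for psma8, whose mammalian counterpart is a testis form of an alpha subunit. In the wild-type pools psma5 differed by 1.2 and psma8 by 0.64. The transgenic mean of psma5 was 7.26 ± 0.02 (SD, n = 3) and its wild-type mean 7.35 ± 0.85 (SD, n = 2).

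All 7 constitutive beta probe sets had negative changes, from -0.83 to -0.05, and none passed. Changes were negative for 6000 of all 10335 probe sets tested. The class median of -0.19 was 0.13 with wild-type pool 1 left out and -0.61 with wild-type pool 2 left out. The probe sets for the catalytic subunits were psmb6, of the caspase-like site, psmb7, of the trypsin-like site, and psmb5, of the chymotrypsin-like site. The psmb7 probe set stood at the low end, with 5.79, 6.13 and 6.41 in transgenic pools and 7.36 and 6.51 in wild-type pools. Every transgenic pool was below both wild-type pools, by little in the case of transgenic pool 3 and wild-type pool 2. The change of -0.83 had a 95% interval from -1.69 to 0.03 and a limma adjusted p of 0.157. It was -0.40 with wild-type pool 1 left out (limma adjusted p = 0.378) and -1.25 with wild-type pool 2 left out (0.0547).

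After quantile normalization psmb7 was the 1 member that passed, with a change of -0.94 and a limma adjusted p of 0.0453, where 25.9% of all probe sets were called (10.8% higher and 15.1% lower). The psmb6 values were 7.36, 7.46 and 7.30 in transgenic pools and 7.99 and 7.05 in wild-type pools, with the transgenic pools inside the wild-type pair. The psmb5 values were 4.85, 5.25 and 5.30 in transgenic pools and 5.76 and 5.06 in wild-type pools, which overlap. Of the non-catalytic beta subunits, psmb1 read 8.0, 7.97 and 7.84 in transgenic pools, below 8.49 and 8.11 in wild-type pools, with a change of -0.36 (SE 0.24, limma adjusted p = 0.351). The smallest change in the ring belonged to psmb2, another non-catalytic subunit, which read 7.99, 7.87 and 7.61 in transgenic pools and 8.15 and 7.60 in wild-type pools. Its transgenic values lay between the wild-type pair, with a change of -0.05 (SE 0.28, limma adjusted p = 0.927).

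The inducible beta subunits and their relatives had the highest class median among subunits of the core, 0.69. All 5 changes were positive and none passed the threshold, where 4335 of all 10335 probe sets tested had positive changes. The class median was 1.25 with wild-type pool 1 left out and 0.12 with wild-type pool 2 left out. Subunit psmb8a replaces psmb5, psmb9a replaces psmb6 and psmb10 replaces psmb7 when immunoproteasomes form. The related psmb12 and psmb13a stand beside psmb8a and psmb9a without another gene between them in the RefSeq gene table (zebrafish assembly GRCz12tu), followed by the peptide transporter gene tap2a. These 4 neighbours and psmb10, which is on another chromosome, accounted for the class.

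The psmb8a values were 8.25, 7.94 and 7.55 in transgenic pools and 7.87 and 6.42 in wild-type pools. Wild-type pool 2 was far below the other 4 arrays, and wild-type pool 1 lay among the transgenic pools. The change of 0.76 had a 95% interval from -0.40 to 1.92 and a limma adjusted p of 0.323. The psmb13a values followed the same order, at 7.59, 7.35 and 6.92 in transgenic pools and 7.16 and 5.77 in wild-type pools. Its change of 0.82 (SE 0.46) had a limma adjusted p of 0.276. The psmb12 values were 7.60, 7.35 and 7.08 in transgenic pools and 7.21 and 6.09 in wild-type pools, a change of 0.69 (SE 0.39, limma adjusted p = 0.279). For all 3 genes transgenic pool 1 was the highest array and wild-type pool 2 the lowest.

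The psmb10 values were 7.02, 6.81 and 6.41 in transgenic pools and 6.45 and 5.80 in wild-type pools. The groups overlapped only through wild-type pool 1 and transgenic pool 3, and the change of 0.62 (SE 0.32) had a limma adjusted p of 0.236. The exception of the class was psmb9a, with 6.66, 6.61 and 6.37 in transgenic pools and 6.99 and 5.85 in wild-type pools. Its highest value was in wild-type pool 1, and its change was 0.13 (SE 0.38, limma adjusted p = 0.862). Without wild-type pool 1 the changes of psmb8a, psmb12 and psmb13a were 1.49, 1.25 and 1.52 with limma adjusted p-values of 0.0541, 0.0529 and 0.0507. The psmb10 change was 0.95 in that case (limma adjusted p = 0.109) and 0.30 without wild-type pool 2. For the other 3 genes the changes without wild-type pool 2 were 0.04, 0.13 and 0.12, so the difference rested mainly on wild-type pool 2.

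Changes of each inducible subunit and its constitutive counterpart were also compared within arrays, where a shift of the whole array cancels. Relative to the wild-type mean, psmb8a minus psmb5 stood at 1.65, 0.95 and 0.51 in transgenic pools and at 0.38 and -0.38 in wild-type pools. The psmb10 minus psmb7 difference stood at 2.04, 1.5 and 0.81 in transgenic pools and at -0.10 and 0.10 in wild-type pools. The psmb9a minus psmb6 difference stood at 0.40, 0.24 and 0.17 in transgenic pools and at 0.10 and -0.10 in wild-type pools. In all 3 pairs every transgenic pool was above both wild-type pools, by 1.04, 1.45 and 0.27 on average for psmb8a, psmb10 and psmb9a. Of all single probe sets tested, 20.1% had every transgenic pool above wild type. The share was 24.2% after the median of the constitutive subunits was subtracted on each array. A share over pairs of probe sets was not computed. A two-sided exact permutation test over the 5 arrays gave p = 0.2 for each pair (adjusted p = 0.2 over 3 pairs), the smallest p that 10 splits of the arrays allow. With quantile normalized values the psmb8a pair overlapped between the groups, with a difference of 0.84 and an exact permutation p of 0.4.

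**Figure D4:**
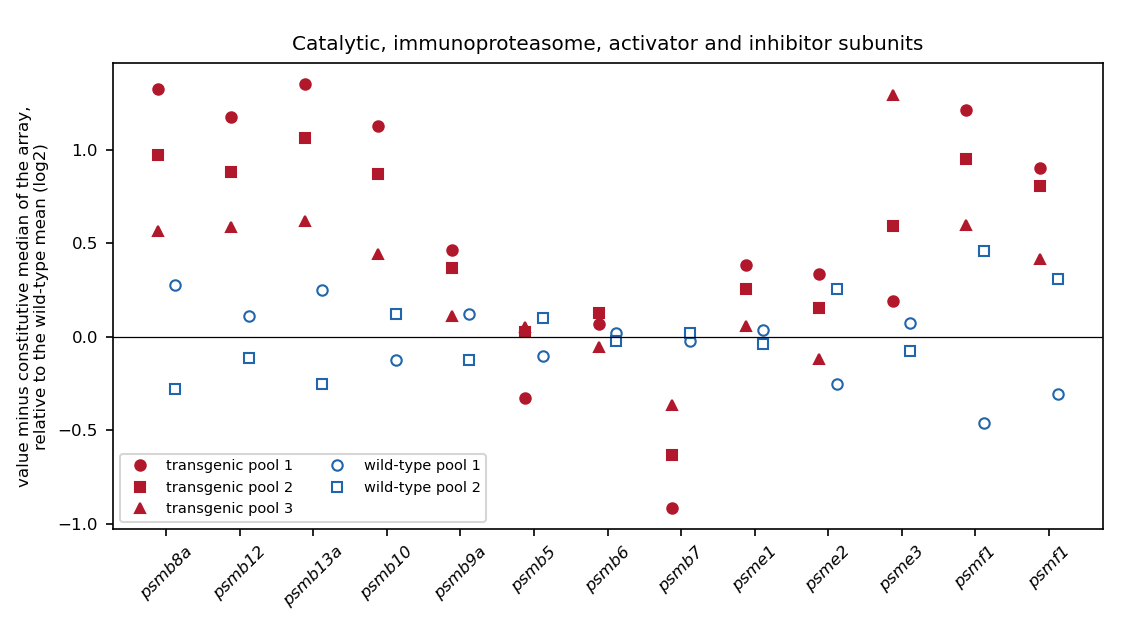
Value of catalytic, inducible, activator and inhibitor probe sets minus the median of the constitutive subunits on the same array, set to 0 at the wild-type mean (log2), in the 3 transgenic pools (filled red) and the 2 wild-type pools (open blue). The transgenic pools lie above the wild-type pools for psmb8a, psmb12, psmb13a, psmb10, psme3, both psmf1 probe sets and, narrowly, psme1, and below them for psmb7.

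The same view was taken for all members by subtracting, on each array, the median of the 36 constitutive alpha, beta, ATPase and non-ATPase probe sets, a scale chosen after the values were seen and used without a test. That median was 6.74, 6.78 and 6.80 in transgenic pools and 7.41 and 6.52 in wild-type pools. On this scale psmb8a stood 1.33, 0.97 and 0.56 above the wild-type mean in transgenic pools, with the wild-type pools at 0.28 and -0.28. The psmb10 probe set stood at 1.13, 0.87 and 0.44 in transgenic pools and at -0.12 and 0.12 in wild-type pools. The psmb7 probe set stood at -0.91, -0.63 and -0.36 in transgenic pools and at -0.02 and 0.02 in wild-type pools. On this scale the groups did not overlap for 17 members higher and 6 lower of 55, where 24.2% of all probe sets were higher and 18.8% lower. The subtracted median comes from 36 of these same members. It takes out the gap between the wild-type pools that they share, so these counts are no separate result about the members.

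The measured genes around antigen processing did not move as one group. Of 39 listed genes 15 were measured, and tap1, tap2a, stat1a and ifng1 were among those that were not. The median change of the 15 was 0.03. Of them 3 fell and 1 rose, beside 11.3% and 11.2% of all genes, and the other 11 missed the threshold. The list median was 0.27 when wild-type pool 1 was left out and -0.29 when wild-type pool 2 was. The aminopeptidase gene erap1b, which trims peptides, read 5.58, 5.57 and 5.51 in transgenic pools and 4.94 and 4.71 in wild-type pools. It rose by 0.73 (SE 0.19, limma adjusted p = 0.0408), a call missed with wild-type pool 2 left out, at 0.0556. The invariant chain gene cd74a read 10.09, 10.503 and 10.54 in transgenic pools and 11.7 and 11.71 in wild-type pools. The paralogue cd74b read 9.28, 9.66 and 9.78 in transgenic pools and 10.99 and 10.89 in wild-type pools. Both were lower in every transgenic pool: cd74a fell by 1.33 and cd74b fell by 1.37 (limma adjusted p = 0.00366 and 0.00559). The interferon-responsive factor gene irf1b fell by 1.3 (SE 0.27, limma adjusted p = 0.0201). The irf1b values were 6.78, 7.03 and 6.80 in transgenic pools and 8.41 and 7.94 in wild-type pools, so the groups did not overlap.

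Leukocyte markers moved between the wild-type pools as well. Of 33 listed markers 11 were measured, and lck, cd8a, cd79a and pax5 were among those that were not. Of the 11 measured leukocyte markers, 0 rose and 2 fell, beside 11.2% and 11.3% of all genes, with a list median of -0.73. The 2 that fell were cxcr4b, a chemokine receptor gene, at -1.3 (limma adjusted p = 0.0344), and spi1b, a myeloid transcription factor gene, at -0.99 (0.0325). The cxcr4b call was missed with either wild-type pool left out, and the spi1b call with wild-type pool 1 left out. The cxcr4b values were 5.11, 5.36 and 5.96 in transgenic pools and 6.64 and 6.92 in wild-type pools. The spi1b values were 4.11, 4.19 and 4.36 in transgenic pools and 5.52 and 4.89 in wild-type pools. Neither gene overlapped between the groups. The median change of the leukocyte markers was -0.30 with wild-type pool 1 left out and -1.16 with wild-type pool 2 left out. Which leukocyte markers were called also depended on the pool left out. The log2 of their summed level was 9.67, 9.86 and 10.45 in transgenic pools and 11.57 and 10.15 in wild-type pools. Wild-type pool 1 was the highest array for these markers and transgenic pool 1 the lowest. Among the transgenic pools the summed leukocyte, squamous and striated muscle levels were lowest in pool 1 and highest in pool 3. The median leukocyte level did not keep this order, at 5.86, 6.23 and 6.18 in transgenic pools 1, 2 and 3. The exocrine pancreas, intestinal absorptive and hepatocyte levels were highest in pool 1 and lowest in pool 3. The same order held for psmb8a, psmb12, psmb13a, psmb10 and psmb9a. It also held for members of other classes, among them psma1, psma2a, psma4, psmb1, psmb2, psmc2, psme1, psme2 and psmf1. Further examples were psma5, psma8, psmc5, psmd2, psmd6, psmd13 and psmg2. The order was the reverse for others, among them psmb3, psmb5, psmb7, psmc6, psmd4a, psmd7, psmd10, psme3 and psmg3. Members outside the inducible class had the order of the inducible subunits more often than its reverse. A share over all probe sets was not computed for either order. The filter alone puts each measured marker above the background on 2 or more arrays. The part of any of these cell types in the proteasome values was not tested.

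The ATPase ring, which unfolds substrates, had 8 tested probe sets with changes from -0.41 to 0.09 and a median of -0.10. The highest was psmc3, at 7.72, 7.78 and 7.72 in transgenic pools and 8.01 and 7.30 in wild-type pools. Its transgenic values differed by 0.06 and lay inside the wild-type pair, with a change of 0.09 (SE 0.29, limma adjusted p = 0.877). The lowest was psmc5, at 7.0, 6.97 and 6.85 in transgenic pools and 7.74 and 6.96 in wild-type pools. The change of -0.41 (SE 0.31) had a limma adjusted p of 0.419. It was -0.02 with wild-type pool 1 left out and -0.80 with wild-type pool 2 left out. For psmc6 the transgenic mean of 6.76 ± 0.05 (SD, n = 3) and the wild-type mean of 6.77 ± 0.86 (SD, n = 2) were equal to within 0.01, with a 95% interval of the change from -0.96 to 0.95.

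Of the 13 probe sets for non-ATPase subunits of the regulatory particle, 11 had negative changes, beside 6000 of all 10335 probe sets tested. The genes psmd1 and psmd12 count more than once in this. The median was -0.31, with a range from -0.49 to 0.31. The class median was 0.05 with wild-type pool 1 left out and -0.63 with wild-type pool 2 left out. The probe sets of the gene psmd12, whose product belongs to the lid, were both lower in value. One of them read 4.34, 4.32 and 4.32 in transgenic pools and 5.01 and 4.63 in wild-type pools, without overlap. Its change of -0.49 had a 95% interval from -0.94 to -0.05, an unadjusted limma p of 0.0358 and an adjusted p of 0.112. The brighter psmd12 probe set read 6.67, 6.52 and 6.69 in transgenic pools and 7.45 and 6.58 in wild-type pools, which overlap, with a change of -0.39 (SE 0.32). Without wild-type pool 2 the change was -0.68 for the dimmer probe set and -0.82 for the brighter one. Without wild-type pool 1 it was -0.30 for the dimmer and 0.05 for the brighter probe set.

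The scaffold gene psmd1, also with 2 probe sets, was lower in both without overlap. One probe set read 5.65, 5.72 and 5.80 in transgenic pools and 6.20 and 6.01 in wild-type pools, with a change of -0.38 (SE 0.21, limma adjusted p = 0.276). The other had a change of -0.34 (SE 0.19, limma adjusted p = 0.284). The lid gene psmd3 was also without overlap, at 5.59, 5.73 and 5.60 in transgenic pools and 6.27 and 5.79 in wild-type pools. The non-overlapping members below wild type were therefore psmb1, psmb7, psmd3, both psmd1 probe sets and 1 of psmd12, which makes 6 of 55, where 30.8% of all probe sets had this pattern.

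The highest non-ATPase change was that of psmd11b, a lid gene, at 4.97, 4.72 and 4.79 in transgenic pools and 4.69 and 4.35 in wild-type pools. The transgenic values were all above wild type, with a change of 0.31 (SE 0.19, limma adjusted p = 0.328). The ubiquitin receptor genes psmd4a and psmd4b had changes of -0.28 and -0.34 (limma adjusted p = 0.617 and 0.583). The widest wild-type gaps of the class were 1.48 for psmd7 and 1.48 for psmd13, whose transgenic values spanned 0.31 and 0.10.

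The inhibitor psmf1 was the member nearest to the threshold. Its product binds the core and blocks its activity in vitro, and has been linked to proteasome assembly and transport. The brighter psmf1 probe set read 6.25, 6.03 and 5.70 in transgenic pools and 5.25 and 5.28 in wild-type pools. All transgenic pools were above both wild-type pools, and the change of 0.73 had a 95% interval from 0.14 to 1.32, an unadjusted limma p of 0.0237 and an adjusted p of 0.0839. The dimmer probe set read 5.27, 5.22 and 4.85 in transgenic pools and 4.73 and 4.45 in wild-type pools, again without overlap. Its change was 0.52 (SE 0.22, limma adjusted p = 0.148). These 2 probe sets, with psma2a and psmd11b, were the 4 members with every transgenic pool above wild type, where 20.1% of all probe sets had that pattern.

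For psmf1 the wild-type pools differed by -0.03 and 0.28 on the deposited scale, less than for the subunits of the core. The gaps of psmd1 (0.12 and 0.19) and psmd2 (0.10) were small on that scale too. After quantile normalization the psmf1 gaps were -0.32 and 0.24, and some core subunits had smaller ones, such as psmb1 at 0.03. Leaving out wild-type pool 1 or 2 gave changes of 0.72 and 0.74 for the brighter probe set, with limma adjusted p-values of 0.144 and 0.121.

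The activators cap the core without ATPases. The gene pair psme1 and psme2 encodes the interferon-responsive cytosolic activator, and psme3 the related nuclear one. The psme1 values were 8.01, 7.93 and 7.74 in transgenic pools and 8.33 and 7.37 in wild-type pools, inside the wild-type pair, with a change of 0.04 (SE 0.34, limma adjusted p = 0.953). The psme2 values were 8.15, 8.02 and 7.76 in transgenic pools and 8.24 and 7.85 in wild-type pools, which overlap, with a change of -0.07 (SE 0.26, limma adjusted p = 0.897).

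In contrast, psme3 varied most among the transgenic pools of all members, with a span of 1.16. It read 5.62, 6.07 and 6.78 in transgenic pools and 6.18 and 5.13 in wild-type pools. Transgenic pool 3 was the highest array and the others mixed, with a change of 0.50 (SE 0.46, limma adjusted p = 0.511). Transcripts of oocytes and germ cells were also highest in transgenic pool 3, where the log2 of the summed level of 11 such markers was 7.45, 9.87 and 11.37 in transgenic pools 1, 2 and 3 and 8.47 and 8.32 in wild-type pools. Their part in the psme3 values was not tested. The psme3ip1 probe sets tested, for a protein that binds the nuclear activator, had changes of -0.17 and 0.09 (limma adjusted p = 0.544 and 0.833).

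Among assembly chaperones, psmg1, psmg2 and psmg3 help to build the alpha ring, and psmd5, psmd9 and psmd10 the base of the regulatory particle. Their 7 tested probe sets had changes from -0.51 to 0.36 with a median of 0.03. The highest was psmg2, at 6.42, 6.23 and 5.94 in transgenic pools and 6.27 and 5.39 in wild-type pools, which overlap (change 0.36, SE 0.34, limma adjusted p = 0.517). The lowest was psmg3, at 5.59, 5.77 and 5.88 in transgenic pools and 6.87 and 5.63 in wild-type pools. The change of psmg3 was -0.51 (SE 0.39, limma adjusted p = 0.430), and it was -1.13 with 0.0326 without wild-type pool 2, whose value lay near those of the transgenic pools. Of psmg1, the brighter probe set had 5.16 ± 0.02 (SD, n = 3) in transgenic pools and 5.14 ± 0.49 (SD, n = 2) in wild-type pools.

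Genes that work with the proteasome were counted in the same way. Of 12 measured proteasome-associated genes outside the symbol rule, 0 rose and 0 fell. Among them were the deubiquitinase genes usp14 and uchl5, the ubiquitin receptor gene adrm1 and the maturation factor gene pomp. The median change of the 12 was 0.01, with a range from -0.43 to 0.21. Their median was 0.23 with wild-type pool 1 left out and -0.22 with wild-type pool 2 left out. Of 21 genes for the segregase that extracts substrates, for shuttle factors and for export of misfolded proteins from the endoplasmic reticulum, 0 rose and 0 fell, with a median of 0.02 and a range from -0.54 to 1.31, the upper end being hspa5, a chaperone gene of the endoplasmic reticulum (limma adjusted p = 0.101). The list median was 0.13 with wild-type pool 1 left out, where some genes were called higher. It was -0.16 with wild-type pool 2 left out (20 genes measured), where none was. Among all 6479 genes tested 728 rose and 729 fell, or 11.2% and 11.3%. The limma changes of the 4 named associated genes were -0.01, -0.23, -0.14 and 0.16, in the order given.

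Of 36 measured genes for ubiquitin and its transfer, 1 rose and 1 fell, with a median change of -0.25 beside -0.08 over all genes. The median was -0.07 with wild-type pool 1 left out and -0.43 with wild-type pool 2 left out, and the calls changed with the pool. The polyubiquitin gene ubb read 12.42, 12.39 and 12.30 in transgenic pools and 12.15 and 11.86 in wild-type pools, and rose by 0.37 (SE 0.10, limma adjusted p = 0.0467). With wild-type pool 2 left out ubb missed the threshold, at 0.0780. The gene rps27a, which encodes ubiquitin fused to a ribosomal protein, read 11.96, 12.03 and 12.04 in transgenic pools and 12.33 and 12.27 in wild-type pools, and fell by 0.29 (SE 0.07, limma adjusted p = 0.0277). With wild-type pool 1 left out rps27a missed the threshold, at 0.0568.

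Of 17 measured genes of proteotoxic and oxidative stress control, 1 rose and 0 fell, with a median of -0.19. The median was 0.10 with wild-type pool 1 left out and -0.25 with wild-type pool 2 left out, and the calls changed with the pool. The gene that rose with all arrays was keap1a, which encodes an adaptor that hands the stress factor Nrf2 to a ubiquitin ligase. It read 7.51, 7.16 and 6.76 in transgenic pools and 5.48 and 5.28 in wild-type pools, a rise of 1.76 (SE 0.30, limma adjusted p = 0.0114), with every transgenic pool above wild type.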

How the data were processed

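Expression was measured in 3 zCdx1b transgenic and 2 wild-type pools, grouped by their labels. The values are log2 expression values as deposited by the authors, one for each probe set on each array. The submitters' processing notes name MAS5. The sources used here give neither its version and scaling target nor how the values were put on a log scale. The base 2 was taken from the values, and another base would change the folds but no direction or test. The arrays had nearly equal means over all probe sets. Probe sets were named from GEO's platform annotation. The 115 control probe sets were left out of the tests.

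A probe set was kept if on 2 or more arrays it reached that array's 40th percentile. Groups were compared with limma 3.58.1 in R 4.3.3 (lmFit, eBayes with a trend, no covariate) on all 10335 probe sets kept, two-sided, with Benjamini-Hochberg adjustment and a threshold of 0.05. Intervals are 95% intervals from that fit. The fit was run on simulated data whose noise was independent between probe sets and of equal spread in both groups. That setting does not cover a gap shared by many probe sets, as between the wild-type pools here. In lists the brightest probe set stood for its gene. The background was the highest value of 44 negative control probe sets on each array. The number of arrays limits the precision. The labels call the pools biological replicates.

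The members and lists were chosen with earlier results of these data known. Values by pool are given for inducible subunits, activators, and the highest and lowest change of each class, and, in the lists of partner and antigen processing genes and leukocyte markers, for up to 4 genes with the largest called change. Other marker lists are given as counts and summed levels, with no gene values. Further members (psma5, psma8, psmb1, psmb5, psmb6, psmc6, psmd1, psmd3, psmd4a, psmd4b, psmd7, psmd13, psmg1), hspa5 and associated genes were chosen after their values were seen. Alternatives were quantile normalization, a replicate block, averaging of probe sets by gene, median centring, no trend, a robust trend, no filter or one at the 60th percentile, and each array left out. List counts and medians with a wild-type pool left out were added after the values were seen. Promoter motifs and sequences were not analysed here.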

Additional observations from a re-analysis of the deposited data

How the results depend on the processing

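The counts of members called higher and lower were 0 and 0 under median centring, without a filter, with the 60th percentile filter, without a trend, with a robust trend and, by gene, with probe sets averaged. After quantile normalization 1 member, psmb7, was called lower. With each array left out in turn the count of members called lower ran from 0 to 7 (by gene 0 to 6) and that called higher stayed at 0, and the members' median change ran from -0.43 to 0.33. Over all probe sets those arrays left out gave 649 to 1164 called higher and 367 to 1445 called lower. The smallest counts, 649 higher and 367 lower, came with transgenic pool 2 left out, and 592 lower with wild-type pool 1 left out. The cause of these shifts was not tested.

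The replicate number as a block gave 0 members called, a median change of -0.08, and 934 probe sets higher and 932 lower over all. No wild-type pool shares the number of transgenic pool 3, so changes in the block fit equal those with that pool left out. Replicate numbers 1 and 2 are shared by the groups, but deviations from the group means correlated at -0.25 for pool 1 and -0.13 for pool 2, so nothing shows that the numbers pair the pools. The block turned psmb2 to 0.0541 and psme2 to 0.0393.

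Some changes turned in sign in other settings, where no sign-turned change was called. They were not only small ones, as psmg3 (-0.51), psme3 (0.50), psmg2 (0.36) and psma2b (-0.34) were among them. The values below cover selected probe sets. Many other members took opposite signs depending on which wild-type array was dropped. For pool 1 and pool 2 in turn, psma5 stood at 0.51 and -0.69, psmb6 at 0.33 and -0.61, and psmd7 at 0.73 and -0.74. Median centring put psmb2 at 0.0047, and quantile normalization put psmc3 at -0.0771 and psme1 at -0.14. With arrays left out, changes ran from -0.75 to 0.0753 for psma2b, -0.33 to 0.22 for psmb2, -0.44 to 0.70 for psmb9a, -0.27 to 0.44 for psmc3, -0.44 to 0.53 for psme1, -0.26 to 0.13 for psme2, -0.0187 to 1.02 for psme3, -0.23 to 0.42 for 1 psme3ip1 probe set, -0.0777 to 0.80 for psmg2 and -1.13 to 0.11 for psmg3. The pair differences kept their sign with each array left out (added after the data were seen), at 0.66 to 1.41 for psmb8a, 0.17 to 0.37 for psmb9a and 1.15 to 1.77 for psmb10.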
